A study of Mus musculus with 2 samples.

Results

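Gdf15 and Fgf21 encode secreted factors that are called mitokines because cells release them when their mitochondria fail. These 2 genes, of 22587 gene symbols counted, were followed here in single YFP+ cells of the adult mouse hippocampus with and without Opa1. The members were chosen by their names after their counts in the same cells had been seen, so the levels between genotypes and the patterns over cells are given as a description, with no test. Gdf15 was the transcript of the pair that could be measured. It was counted in 591 of 2844 NSC pool-like cells of the Opa1 cKO library and in 1 of 1374 in the CT library. Fgf21 was counted in 5 cells in all, each of them Opa1 cKO.

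CT mice were Nestin-CreERT2:Rosa26YFP animals, and Opa1 cKO mice carried floxed Opa1 alleles in addition. The labels name the CT library WT and give both libraries 1 shared strain entry. Both genotypes were heterozygous for Cre on a C57/BL/6 background, both received tamoxifen (TAM), and live YFP+ cells were sorted from the hippocampus at 12 weeks of age, 4 weeks post-TAM. Cre was driven by the nestin promoter, so recombined cells include neural stem cells (NSCs), their progeny and any other cell type in which the transgene acts. Cells of 3 mice, males and females, went into a single droplet library per genotype, made with the 10x Genomics 3′ chemistry. Each captured mRNA receives a cell barcode and a molecular tag (UMI), which makes each value a number of molecules. With 1 library per genotype there was no replicate, and every interval below is a 95% interval of counting error only, which does not cover differences between mice, sorts or libraries.

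Sequencing gave 4634 barcodes with 10799936 UMIs for CT and 6475 barcodes with 18662032 UMIs for Opa1 cKO. The study's filters on genes, mitochondrial content and YFP left 1790 CT and 3764 Opa1 cKO cells, with medians of 2555 and 3008 UMIs. The libraries shared 36 barcodes, and none of the 4 CT barcodes with Gdf15 was among them. Kept cells fell into 8 clusters. The 3 NSC pool-like clusters had 11 to 13 of 20 NSC markers raised, and their leading genes include Aldoc, Acsbg1 and Slc7a10, which astrocytes express too. The clusters were built without Gdf15, Fgf21, Opa1, YFP and mitochondrially encoded (mt-) genes. The lists of kinases, regulators and ATF4 targets of the integrated stress response were left out too. Genes of the mitochondrial and ER unfolded protein responses and p53 targets were not left out. Cluster 0 was nearly all Opa1 cKO, with 67 CT and 1853 Opa1 cKO cells, while clusters 1 and 2 held both, with 812 and 495 CT and 756 and 235 Opa1 cKO cells. Gdf15 and Nupr1, which were not used for clustering, are among the 10 leading genes of cluster 0. Leading genes are those furthest above the median of all clusters. In a cluster of nearly all Opa1 cKO cells this restates their levels in that library and is no separate result. Opa1 itself, the inner-membrane GTPase deleted by the Cre, had 18.6 CPM (UMIs of a gene scaled to the summed UMIs of the cells) in NSC pool-like cells of CT and 7.31 CPM in those of Opa1 cKO. Tags of a 3′ assay need not lie in the deleted exons, so this is no check of the deletion.

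GDF15 is a distant member of the TGF-beta family. It acts on the brainstem through the receptor GFRAL with its partner RET and lowers appetite. FGF21 is an endocrine fibroblast growth factor that needs the co-receptor beta-Klotho (Klb) beside an FGF receptor and is best known as a fasting hormone of the liver. Both genes are known targets of ATF4 and its partner CHOP (Ddit3), the transcription factors of the integrated stress response (ISR), in which phosphorylation of the initiation factor eIF2 slows general translation while ATF4 is made. Both proteins are used as blood markers of mitochondrial disease.

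In the GENCODE annotation of mm10 Gdf15 (ENSMUSG00000038508) lies at chr8:70629393-70632456 on the minus strand, with 2 annotated transcripts. Fgf21 (ENSMUSG00000030827) lies at chr7:45613886-45615490 on the minus strand, with 1 transcript of 3 exons. The 250 bases before each start are shown because the C/EBP-ATF response element, the joint site of ATF4 and C/EBP proteins such as CHOP, is the textbook link from the ISR to both genes. It was searched as TGATGNAA on both strands and is in capitals where it occurs. The sequences are RefSeq promoter windows of GRCm38.p6, for Fgf21 at chr7:45615491-45615740 and for Gdf15 at chr8:70632457-70632706, both on the minus strand.
Fgf21: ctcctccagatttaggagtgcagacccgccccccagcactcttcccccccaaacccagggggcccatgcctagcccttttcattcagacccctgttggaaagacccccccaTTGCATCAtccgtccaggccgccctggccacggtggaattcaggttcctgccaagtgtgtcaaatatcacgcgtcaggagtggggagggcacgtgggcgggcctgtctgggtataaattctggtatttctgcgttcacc
Gdf15: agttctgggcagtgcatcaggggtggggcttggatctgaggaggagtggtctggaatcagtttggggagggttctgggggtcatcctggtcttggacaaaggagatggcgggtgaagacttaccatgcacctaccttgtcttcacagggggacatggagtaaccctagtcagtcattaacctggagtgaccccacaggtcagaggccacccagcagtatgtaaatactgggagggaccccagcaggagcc

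The Fgf21 window held 1 match, on the opposite strand, and neither of the 2 windows listed for Gdf15 held one. Of all 32851 promoter windows of 300 bases, 3.97% held the motif. Thus the gene of the pair with the motif in this window was the one with few counts. Absence from a window says only that these letters are not there. No match to the cAMP response element TGACGTCA, which 1.79% of windows held, was found for either gene. Matches of the first motif are shown for 3 other genes that come up below as co-varying with Gdf15 or as ISR genes, with the motif in capitals. These are Nupr1 at chr7:126625562-126625591 (minus strand), Slc7a11 at chr3:50443661-50443690 (minus strand) and Chac1 at chr2:119351038-119351067 (plus strand).
Nupr1: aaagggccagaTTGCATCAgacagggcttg
Slc7a11: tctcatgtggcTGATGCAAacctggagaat
Chac1: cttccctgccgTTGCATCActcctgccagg

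Gdf15 reached 96.4 CPM (90.2 to 103) in Opa1 cKO NSC pool-like cells, from 897 UMIs. In CT cells of the class it was at 0.266 CPM (0.00673 to 1.48), from 1 UMI. The log2 ratio of Opa1 cKO over CT was 8.50 (6.02 to 13.81), and its width comes from the single CT count. Of the 11404 genes with at least 20 UMIs in the class, with a gene at 0 in a library set at 3 counts, at least 2-fold higher in Opa1 cKO were 531, or 4.66%, and at least 2-fold lower were 423, or 3.71%. Gdf15 is among the former, and since it was chosen for this contrast nothing is read from that. Within the clusters the values were 125.5 CPM from 803 UMIs in cluster 0, 25.6 CPM from 58 UMIs in cluster 1 and 55.8 CPM from 36 UMIs in cluster 2 of the Opa1 cKO library. The CT library had 0, 1 and 0 UMIs in the same clusters, of which cluster 0 held 67 CT cells. In cluster 2, with 495 CT and 235 Opa1 cKO cells, Gdf15 was at least 25.6-fold higher in Opa1 cKO, taking 3 counts over the CT cells of that cluster.

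Most cells of the Opa1 cKO NSC pool-like class gave no Gdf15 molecule. It was absent from the counts of 2253 cells, or 79.2%. A single UMI was found in 380 cells, 2 UMIs in 141, 3 in 53 and 4 or more in 17, up to 7 in 1 cell. Cells with 1 UMI held 42.4% of the Gdf15 molecules and cells with 2 held 31.4%, so the total was not set by a few cells. Shares of cells with a UMI grow with depth, and the libraries differed in depth. When every cell was thinned to 1500 UMIs, which left out 94 shallower CT cells and 237 Opa1 cKO cells, Gdf15 was found in 289 of 2607 Opa1 cKO cells, or 11.1% (9.91 to 12.4%). It was found in 0 of 1280 CT cells (0 to 0.288%). Without thinning the shares were 20.8% (19.3 to 22.3%) and 0.0728% (0.00184 to 0.405%).

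Among kept cells of the Opa1 cKO library, the other classes held few of the Gdf15 UMIs. Of the 951 Gdf15 UMIs in kept cells, 94.3% were in NSC pool-like cells, which made up 75.6% of those cells. Mural-like cells, the smooth muscle cells and pericytes of vessels, came next with 50.6 CPM (29.5 to 81.0), from 17 UMIs in 10 of 167 cells. Progenitor and neuron-like cells had 18.8 CPM (11.5 to 29.0), from 20 UMIs, and ependymal-like cells, which line the ventricles with motile cilia, 11.5 CPM (5.76 to 20.7), from 11 UMIs. Endothelial-like and oligodendrocyte-like cells had 3 UMIs each, 7.77 CPM (1.60 to 22.7) and 6.89 CPM (1.42 to 20.1). In the order of the 6 classes, with cells of all mt- shares pooled, NSC pool-like cells lay above the interval of every other class. Mural-like cells lay above those of all but NSC pool-like cells. The remaining 4 overlapped.

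Oligodendrocyte-like cells were taken as the measure of free RNA, which puts stray molecules into droplets of any cell type. At 1500 UMIs they had Gdf15 in 3 of 101 cells, or 2.97% (0.617 to 8.44%), where their median depth was 3914 UMIs before thinning against 2948 for NSC pool-like cells. The NSC pool-like share of 11.1% lay above that interval. Progenitor and neuron-like cells had 1.97% (0.728 to 4.25%) and ependymal-like cells 2.49% (0.919 to 5.34%). Mural-like cells had 4.95% (1.63 to 11.2%), with 66 of 167 left out by thinning, and endothelial-like cells 1.12% (0.0284 to 6.10%). None of these shares lay above that interval. The oligodendrocyte-like cells also carry YFP and may express Gdf15, and their interval is wide. Whether the shares of these classes are background was therefore not tested. The CPM of mural-like cells did lie above the interval of oligodendrocyte-like cells, so its share and its level do not give 1 answer. The CT library had 0 Gdf15 UMIs in all of these classes. In progenitor and neuron-like cells the Opa1 cKO level was 3.07-fold that of 3 counts over the 153 CT cells. In mural-like cells it was 2.83-fold that of 3 counts over 95 CT cells. The exact 95% intervals of these log2 ratios start at 1.18 and 1.04. The progenitor and neuron-like value depends on the clustering. With all genes used, the progenitor and neuron-like class held 170 Opa1 cKO cells with 7 Gdf15 UMIs, or 11.8 CPM (4.73 to 24.2). There 3 counts over 139 CT cells would be 6.67 CPM.

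**Figure D1:**
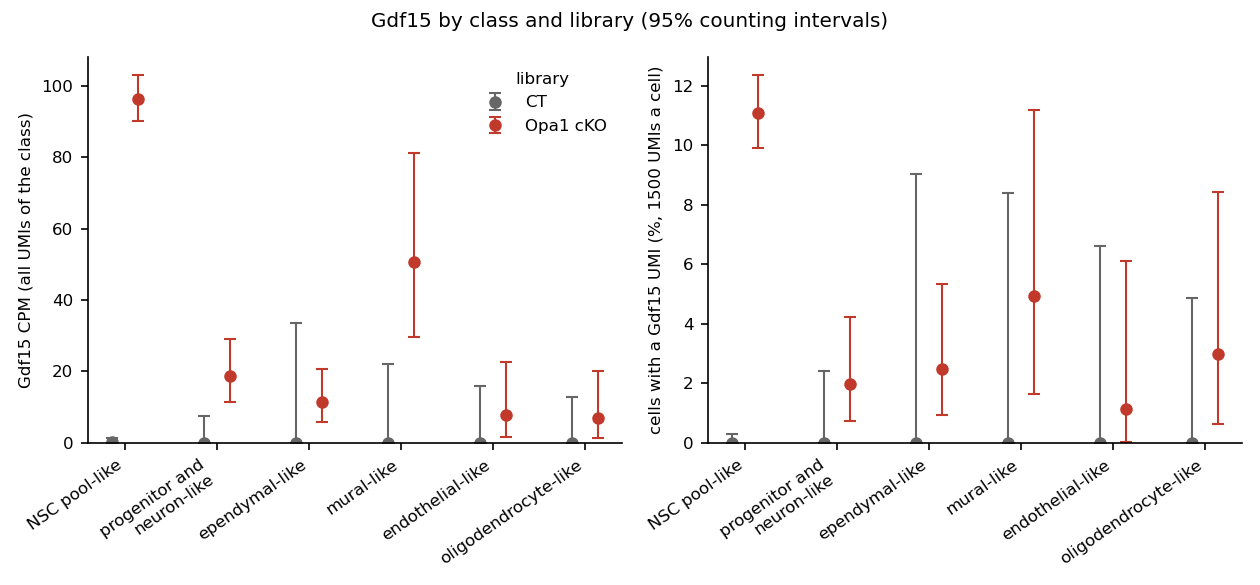
Gdf15 in 6 marker-defined classes of kept cells in the CT (grey) and Opa1 cKO (red) libraries, as CPM over all UMIs of a class (left) and as the percent of cells with a UMI after thinning to 1500 UMIs (right). Points are single libraries and bars 95% counting intervals. NSC pool-like cells of the Opa1 cKO library sit at 96.4 CPM and 11.1%, above the other classes, and every CT point is at or near 0.

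Activated NSC-like cells, named from a list of 12 markers of NSCs that leave quiescence, did not separate in the clustering used above. They separated when the deepest cells were left out, as 46 CT and 339 Opa1 cKO cells, for which Gdf15 is not given here. They also separated when all genes were used for clustering, Gdf15 among them. There they numbered 12 in CT and 405 in Opa1 cKO. Gdf15 was found in 47 of the Opa1 cKO cells, or 11.6% (8.65 to 15.1%), with 64 UMIs and a level between 38.5 and 63.9 CPM, against 21.5% and 99.5 CPM (92.9 to 106.5) in the NSC pool-like cells of that clustering. The 12 CT cells had no Gdf15 UMI, which at their depth is no measure of its level.

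Fgf21 was near the limit of the assay. It had 0 UMIs in all 4634 CT barcodes, where 3 counts would be 0.0647% and the exact interval reaches 0.0796%. It had 6 UMIs in 5 of 6475 Opa1 cKO barcodes, or 0.0772% (0.0251 to 0.180%). The 5 cells were all within the filters, and comprised 3 NSC pool-like cells and 1 ependymal-like cell with 1 UMI each and 1 progenitor and neuron-like cell with 2. NSC pool-like cells thus had 0.322 CPM from 3 UMIs, and thinning to 1500 UMIs left 1 of 2607 cells, or 0.0384% (0.000971 to 0.214%). A difference from CT was not detectable at this depth. None of the 5 cells had a Gdf15 UMI. All of them had under 1% of their UMIs from the 13 mt- mRNAs, between 0.194% and 0.894%. Before thinning they had between 6 and 20 UMIs of the 13 ISR regulators described below, where the bins are of thinned cells. With 5 cells this is a list and not a pattern, and no genes were ranked by Fgf21.

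The share of a cell's UMIs that came from the 13 mt- mRNAs separated the Gdf15 levels of the Opa1 cKO library. These mRNAs are made inside mitochondria and encode subunits of the respiratory chain and the ATP synthase. In NSC pool-like cells under 0.5% mt- share, Gdf15 was at 161.9 CPM (148.7 to 175.9), from 554 UMIs in 352 of 1015 cells. It was at 115.8 CPM (101.7 to 131.3) in the 645 cells at 0.5 to 1%, at 68.0 CPM (51.5 to 88.1) in the 277 cells at 1 to 2%, and at 29.0 CPM (20.9 to 39.3) in the 454 cells at 2 to 5%. In the 453 cells at 5% or more it was at 1.32 CPM (0.160 to 4.78), from 2 UMIs. Each step down was larger than the counting error, as the 5 intervals did not overlap.

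Cells under 1% made up 58.4% of the Opa1 cKO class and held 88.7% of its Gdf15 UMIs. The log2 ratio of Gdf15 CPM in cells under 1% over cells at 2% or more was 3.28 (2.84 to 3.75). The same order held for shares at 1500 UMIs, which were 19.1%, 13.1%, 7.02%, 4.03% and 0% from the lowest to the highest mt- share. Depth did not follow that order, with medians between 2747 and 3108 UMIs per cell.

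CT cells hardly entered the low bins. Only 15 of 1374 were under 2%, so a comparison at equal mt- share was possible for the upper bins alone. At 2 to 5% the CT library had 0 UMIs in 613 cells, against 29.0 CPM in Opa1 cKO. For these CT cells 3 counts would be 1.92 CPM and the exact interval reaches 2.37 CPM. At 5% or more CT had 0.460 CPM (0.0116 to 2.56), from 1 UMI in 746 cells, and Opa1 cKO 1.32 CPM (0.160 to 4.78), from 2 UMIs in 453. Those intervals overlap, and at this mt- share a difference in Gdf15 between the libraries was not detectable. CHOP (Ddit3), taken as a second ISR transcript, was in cells at 5% or more at 48.3 CPM (39.5 to 58.4) for CT and 49.0 CPM (38.5 to 61.5) for Opa1 cKO, and at 51.9 and 118.9 CPM at 2 to 5%. Atf4 was at 66.7 CPM (CT) and 62.2 CPM (Opa1 cKO) at 5% or more. At 2 to 5% Atf4 was at 92.3 CPM (77.9 to 108.7) for CT and 103.0 CPM (87.1 to 121.0) for Opa1 cKO, and these intervals overlap.

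**Figure D2:**
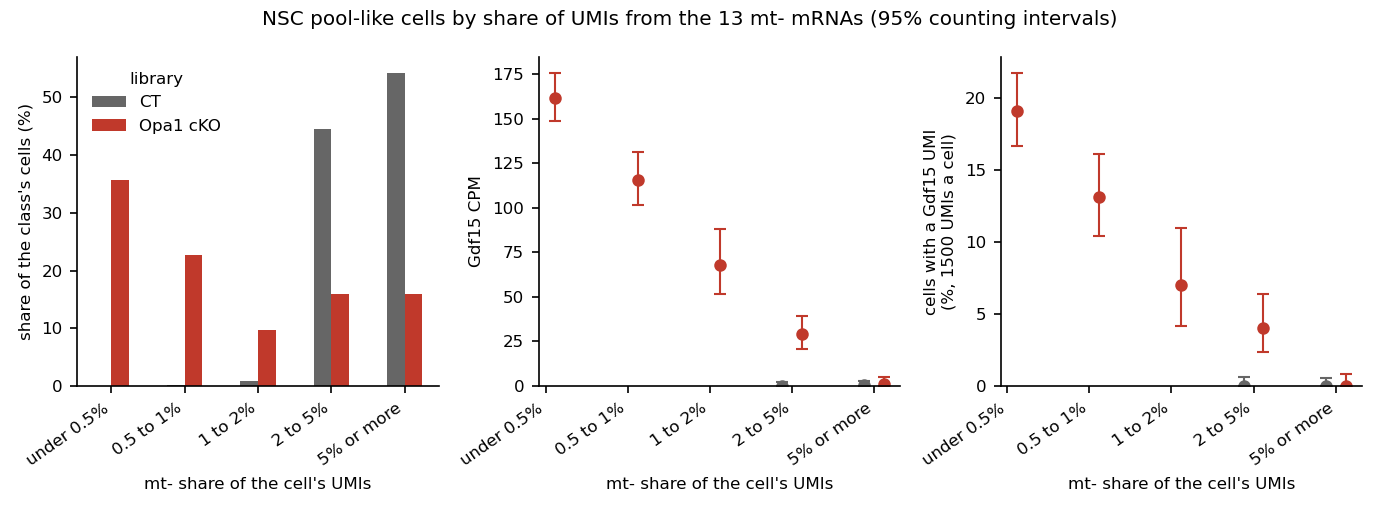
NSC pool-like cells by the share of their UMIs from the 13 mt- mRNAs, as the percent of each library's cells in a bin (left), Gdf15 CPM (middle) and the percent of cells with a Gdf15 UMI after thinning to 1500 UMIs (right), for CT (grey) and Opa1 cKO (red). Bars on points are 95% counting intervals, and Gdf15 is drawn for bins with at least 100 cells. Gdf15 steps down from 161.9 to 1.32 CPM across the bins of the Opa1 cKO library while CT cells lie almost wholly at 2% or more.

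The mt- share was itself uneven over clusters, with Opa1 cKO medians of 0.526% in cluster 0, 4.71% in cluster 1 and 1.25% in cluster 2. Low-share cells with Gdf15 were found in each of them. Under 0.5%, cluster 0 had 507 Gdf15 UMIs in 867 cells, cluster 1 had 27 UMIs in 80 cells and cluster 2 had 20 UMIs in 68 cells. At 5% or more the same clusters had 1 UMI in 62 cells, 1 in 337 and 0 in 54. Outside the class counts were few. In ependymal-like cells Gdf15 was at 12.4 CPM under 1% mt- share and 22.6 CPM at 2% or more, from 8 and 3 UMIs. In Opa1 cKO mural-like cells Gdf15 was at 117.0 CPM (60.4 to 204.3) in the 48 cells under 1% mt- share and 10.9 CPM in the 99 at 2% or more, from 12 and 2 UMIs. The former interval overlaps that of NSC pool-like cells under 1%, at 144.4 CPM (134.5 to 154.8). In progenitor and neuron-like cells Gdf15 was at 20.97 CPM under 1% and 19.01 CPM at 2% or more, from 8 and 7 UMIs, with no visible step.

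YFP marks cells in which Cre has opened the reporter, and its transcripts were counted as 2 YFP features. Without the YFP filter, NSC pool-like cells of the Opa1 cKO library had Gdf15 at 52.8 CPM with no YFP UMI, 77.4 CPM with 1, 88.8 CPM with 2, 100.4 CPM with 3 and 117.5 CPM with 4 or more. The level thus climbed with YFP, and cells with no YFP UMI still had 191 Gdf15 UMIs in 146 of 1534 cells. Median depth rose along the same bins, from 2137.5 UMIs with no YFP UMI to 4327.5 UMIs with 4 or more, so these bins differ in depth too. CT cells had 2 Gdf15 UMIs in 1856 cells with no YFP UMI and 1 UMI in a cell with 3. Among kept cells the log2 ratio of 4 or more YFP UMIs over 1 was 0.59 (0.34 to 0.83).

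Cells with more YFP UMIs also had lower mt- shares, with 35.3% of them under 1% at no YFP UMI, 48.4% at 1, 59.1% at 2, 58.2% at 3 and 73.0% at 4 or more. Among kept cells under 1% mt- share, Gdf15 was at 145.7 CPM with 1 YFP UMI and 140.7 CPM with 4 or more, a log2 ratio of -0.05 (-0.31 to 0.21). When kept cells were thinned to 1500 UMIs and both YFP and Gdf15 counted in the thinned cell, the log2 ratio of 2 or more over 1 was -0.24 (-0.63 to 0.14). In cells clustered without the YFP filter and grouped by the YFP UMIs of the thinned cell, Gdf15 over all their UMIs was at 66.9 CPM (60.7 to 73.5) with no YFP UMI and 98.9 CPM (89.2 to 109.5) with 1. A step from no YFP UMI to 1 was thus present with cells of all mt- shares pooled, while 2 or more had 97.9 CPM (85.4 to 111.7). Under 1% mt- share the levels at no YFP UMI and at 1 were 138.4 CPM (124.5 to 153.3) and 152.9 CPM (137.1 to 170.0). In cells at 2% or more they were 10.4 CPM (7.22 to 14.6) and 10.7 CPM (5.69 to 18.3). With 2 or more YFP UMIs Gdf15 was at 131.5 CPM (113.6 to 151.3) in cells under 1%. In the 166 such cells at 2% or more it was higher, at 22.5 CPM (11.6 to 39.3), from 12 UMIs. Within each mt- share the intervals overlap. Whether the Gdf15 level goes with YFP dose apart from the mt- share was not tested.

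**Figure D3:**
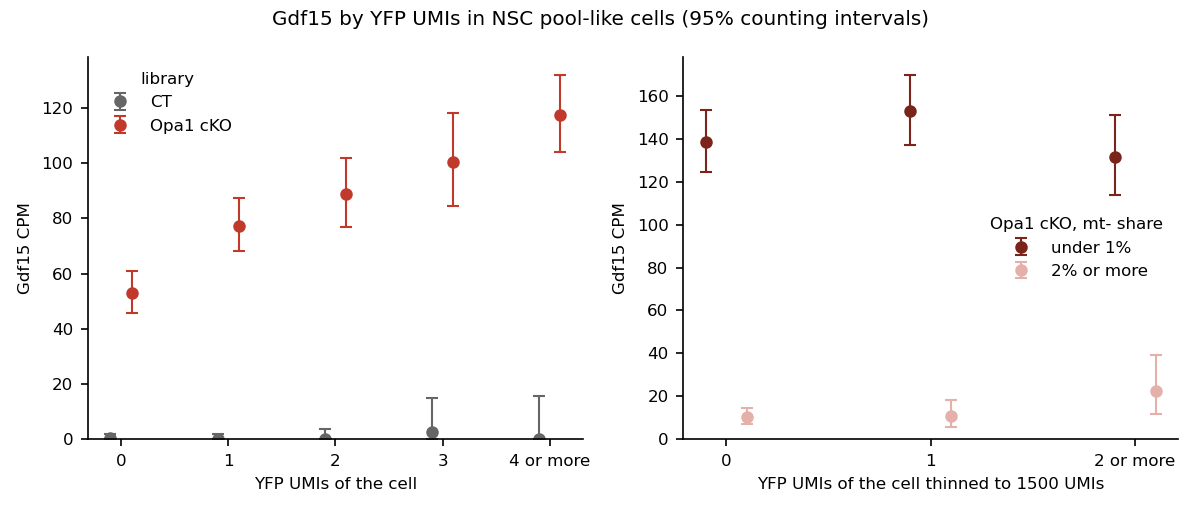
Gdf15 CPM in NSC pool-like cells clustered without a YFP filter, by YFP UMIs of the whole cell in CT (grey) and Opa1 cKO (red) (left), and by YFP UMIs of cells thinned to 1500 UMIs in Opa1 cKO cells under 1% (dark) and at 2% or more (pale) mt- share (right). Bars are 95% counting intervals. The climb from 52.8 to 117.5 CPM on the left is not seen within cells of low mt- share on the right, where the 3 points lie at 138.4, 152.9 and 131.5 CPM. The pale points lie at 10.4, 10.7 and 22.5 CPM, the last from 12 UMIs, with intervals that overlap.

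ISR regulators were higher in Opa1 cKO, as Gdf15 was. The list of 13 holds the transcription factors ATF4, CHOP, ATF3 and ATF5 and the C/EBP genes Cebpb and Cebpg. Its other members are Nupr1, Trib3, Ppp1r15a, Chac1, Sesn2, Ddit4 and Eif4ebp1, not all of which are regulators in the strict sense. All 13 reached 20 UMIs in the NSC pool-like class, and 12 were at least 2-fold higher in Opa1 cKO (4.66% of all genes were) and none was lower (3.71%), with a median log2 ratio of 2.79 against 0.05 over the 11404 genes. Weighting each cell equally left 11 of them at least 2-fold higher, with no ratio for Trib3. Trib3, a pseudokinase that restrains CHOP, had 0 UMIs in CT and 82.7 CPM in Opa1 cKO. Chac1, a glutathione-degrading enzyme, was at 0.531 and 59.8 CPM (log2 ratio 6.82, 4.96 to 9.86). Nupr1, a stress-induced chromatin protein, was at 67.2 and 1002 CPM (3.898, 3.72 to 4.08), and Ddit4 was the exception at 189.5 and 203.9 CPM (0.11, -0.02 to 0.23). Of the 26 ATF4 targets in amino acid and one-carbon metabolism, 21 were at least 2-fold higher and none lower, against the same shares over all genes, with a median of 1.67. For Asns, asparagine synthetase, CT had 0.266 CPM and Opa1 cKO 72.8 CPM, where the CT value rests on 1 UMI, as it does for Gdf15.

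Other lists of genes linked to the 2 mitokines are read against the 4.66% of all genes that were at least 2-fold higher and the 3.71% that were lower. Of 12 ISR kinases and relay components 1 was at least 2-fold higher, Eif2s1, and none lower. The kinases Eif2ak1 to Eif2ak4 had log2 ratios between -0.32 and 0.05, and Oma1 and Dele1, the protease and relay of the mitochondrial branch, 0.45 and 0.13. Of 10 genes of the mitochondrial unfolded protein response 1 was higher, the chaperone Hspa9 at 1.92, and of 12 of the ER unfolded protein response 1 was higher, Herpud1 at 1.21, and 1 lower, Hyou1 at -1.03. Of 13 p53 targets, which are listed because p53 is a known inducer of Gdf15, 11 had at least 20 UMIs, 6 were higher and 1 lower. Among them Cdkn1a, the cell cycle inhibitor p21, had 1.86 CPM (CT) and 88.4 CPM (Opa1 cKO), and Mdm2 at 32.4 and 38.4 CPM. Of 10 targets of PPARA, the fasting regulator of Fgf21 in liver, none was higher and 1 lower, Pdk4 at -1.16.

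The receptor parts specific to each factor had 0 or 1 UMI in these cells, whereas FGF receptors were well counted. In NSC pool-like cells the GDF15 receptor Gfral had 1 UMI for CT and 0 for Opa1 cKO, and its partner Ret 0 for both. The co-receptor Klb had 0 and 1 UMIs. Fgfr1, which pairs with Klb, was at 245.0 and 239.6 CPM (log2 ratio -0.03, -0.14 to 0.08), and Fgfr3 at 466.9 and 280.7 CPM (-0.73, -0.82 to -0.65). Of the 8 receptor genes 3 had at least 20 UMIs, and none of these passed 2-fold in either direction.

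Relatives of the 2 genes are set against the same 4.66% and 3.71% of all genes. Among 23 other ligands of the TGF-beta family 10 had at least 20 UMIs in the class and none was 2-fold higher or lower. Their log2 ratios ran from -0.93 for Bmp7 to 0.50 for Tgfb2, and with each cell weighted equally 1 was at least 2-fold lower. Among 21 other FGFs 5 had at least 20 UMIs, none was higher and Fgf13 was lower at -1.05. Fgf1 had 40.1 CPM (CT) and 59.5 CPM (Opa1 cKO), with a log2 ratio of 0.57 (0.31 to 0.84). Of the 13 mt- mRNAs 6 were at least 2-fold lower and none higher, from -1.89 for mt-Co3 to 0.88 for mt-Atp8. With each cell weighted equally 6 were lower and 1 higher.

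Within the Opa1 cKO library, genes were ranked by their Pearson r with Gdf15 over the 2607 NSC pool-like cells thinned to 1500 UMIs, on log1p counts and over 4378 genes found in at least 5% of cells. All cells come from 1 library and were cut to 1 depth. The r values were low, from -0.215 to 0.197 with a median of 0.00571, since most cells held 0 or 1 Gdf15 UMI, and a weak correlation in counts this sparse is no finding by itself. The highest belonged to Nupr1 (r = 0.197), followed by Slc3a2 (0.180), the heavy chain of amino acid transporters such as xCT, and Ddit3 (0.128). Nupr1 was found in 81.3% of the 289 cells with Gdf15 and in 53.02% of the 2318 cells without, at 1580 and 887.5 CPM. Slc3a2 was at 2870 and 1911 CPM and Ddit3 at 493.7 and 293.1 CPM.

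Of the 20 leading genes, 3 were ISR regulators (Nupr1, Ddit3 and Trib3) and 4 were ATF4 targets of amino acid metabolism (Slc3a2, Slc7a11, Aldh18a1 and Psat1), where 12 and 21 genes of these lists were among the 4378 ranked. Over 14 other settings Nupr1 was among the leading 20 in 14, Slc3a2 and Ddit3 in 13, Slc7a11 in 12, Psat1 in 8, Trib3 in 5 and Aldh18a1 in 3. Slc7a11 is the xCT light chain, Aldh18a1 makes a precursor of proline, and Psat1 is an enzyme of serine synthesis. Genes of no list among the 20 included the initiation factors Eif1 (0.128), Eif5 (0.109) and Eif2s2 (0.0900), the tRNA synthetase Eprs (0.122), Fth1 (0.123), the ferritin heavy chain, Chchd10 (0.114), a protein of the mitochondrial intermembrane space, the secreted protein gene Fibin (0.114), the prion protein gene Prnp (0.111), the thyroxine and organic anion transporter Slco1c1 (0.110) and Aldh1a1 (0.103), which makes retinoic acid. Fibin had 2.13 CPM (CT) and 108.2 CPM (Opa1 cKO), and within Opa1 cKO it was at 191.5 CPM in cells with Gdf15 against 91.7 CPM in those without. Of the 20 leading genes 4 held TGATGNAA in a promoter window (Nupr1, Slc7a11, Chchd10 and Trib3), against 4.51% of all genes with a window, which is a description of the letters and was not tested.

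The 10 lowest r values belonged to 8 of the mt- mRNAs, from mt-Co3 (r = -0.215) and mt-Co1 (-0.203) to mt-Nd2 (-0.123), and to Cst3 (-0.213) and Gstm5 (-0.125). The secreted protease inhibitor cystatin C (Cst3) was at 17991 CPM in cells with Gdf15 and 30089 CPM in those without, and Gstm5 is a glutathione transferase. Over cells under 1% mt- share, 1513 in number, most of these values shrank. The r of the 20 leading genes then ran from -0.000702 for Slc7a11 to 0.105 for Aldh1a1, with Nupr1 at 0.0939 and Slco1c1 at 0.103. Those of the mt- mRNAs ran between -0.0429 and 0.00764, and Cst3 was at -0.112. A ranking made anew in these cells shared 6 of its 20 leading genes with that over all cells. Another seed for the thinning alone kept 12 of the 20, so a part of the list changes with sampling, and the lower number of cells and the mt- share cannot be told apart here.

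**Figure D4:**
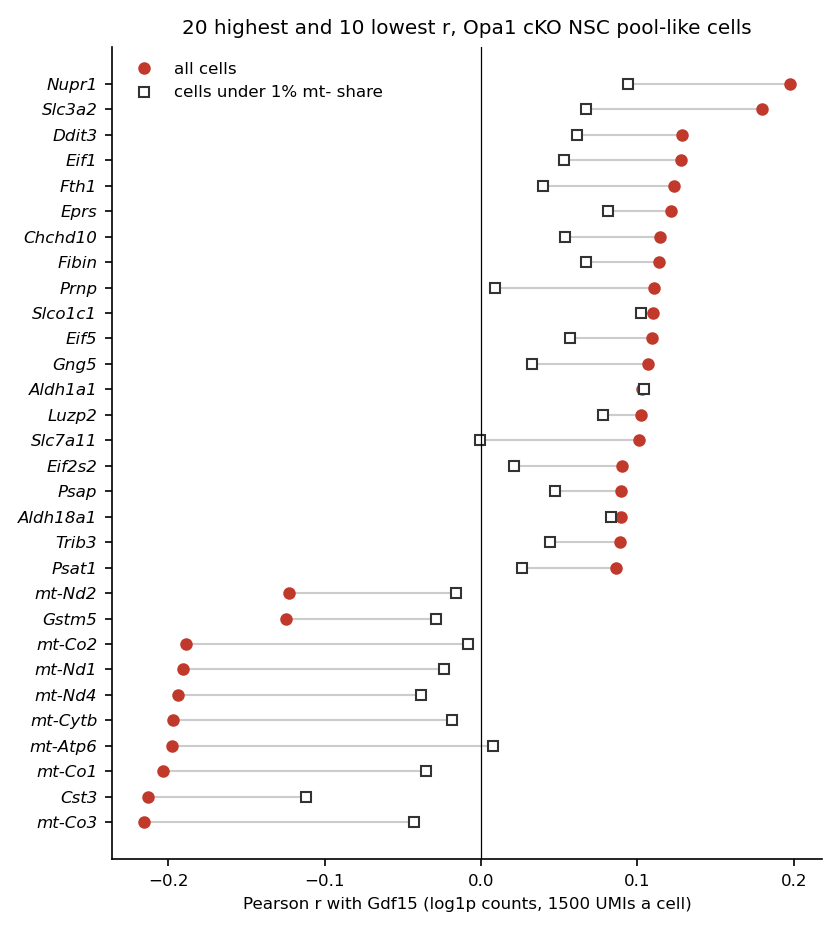
Pearson r with Gdf15 across Opa1 cKO NSC pool-like cells thinned to 1500 UMIs for 20 leading genes and the 10 of lowest r, over all cells (red points) and over the cells under 1% mt- share (open squares). Grey lines join the values of a gene. Nearly all squares lie closer to 0 than the red points, Aldh1a1, Aldh18a1 and Slco1c1 the least changed, and the mt- mRNAs come to lie between -0.0429 and 0.00764.

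The 13 ISR regulators were also counted together. Nupr1 gave 9325 of their 24489 UMIs in Opa1 cKO NSC pool-like cells before thinning. In thinned Opa1 cKO cells with none of their UMIs, 5 of 402 had Gdf15, or 1.24% (0.405 to 2.88%). The share was 5.02% with 1 to 2 UMIs, 12.9% with 3 to 5, 19.4% with 6 to 10 (16.5 to 22.6%) and 23.4% with 11 or more (13.8 to 35.7%). The median mt- share fell along the same bins, from 5.19% to 0.360%. Within cells under 1% mt- share the share with Gdf15 was 6.25% (0.766 to 20.8%) with no ISR UMI, from 2 of 32 cells. It was 12.7% (8.38 to 18.2%) at 1 to 2 ISR UMIs and 14.6% (11.9 to 17.6%) at 3 to 5. At 6 to 10 it was 20.6% (17.4 to 24.1%) and at 11 or more 23.7% (13.6 to 36.6%). In cells at 2% or more it was 0.281% (0.00711 to 1.56%) at none, 1.06% at 1 to 2, 9.00% (4.20 to 16.4%) at 3 to 5 and 15.8% in the 19 cells at 6 to 10. The shares given thus rose with ISR UMIs in both, though under 1% mt- share the intervals of all bins overlap. No such order was visible in cells at 1 to 2% mt- share, where the intervals overlap too. The share there was 14.3% at none, from 2 of 14 cells, 4.62% at 1 to 2, 6.60% at 3 to 5 and 7.55% at 6 to 10. At 11 or more it was 1 of 4 cells. In cells at 2% or more the intervals at 1 to 2 and 3 to 5 ISR UMIs did not overlap. At 1 to 2 ISR UMIs the share differed beyond its interval between the low and the high mt- share. In CT 67 thinned cells had 3 to 5 ISR UMIs and none had more, and Gdf15 was in 0 of them.

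**Figure D5:**
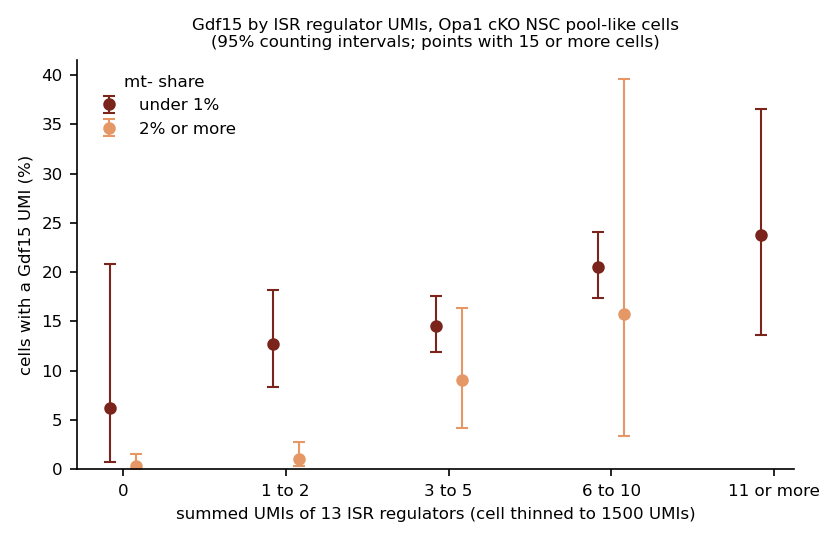
Percent of Opa1 cKO NSC pool-like cells with a Gdf15 UMI by the summed UMIs of 13 ISR regulators, all counted in cells thinned to 1500 UMIs, for cells under 1% (dark) and at 2% or more (orange) mt- share. Bars are 95% binomial counting intervals and points need at least 15 cells. The dark points run from 6.25% (2 of 32 cells) to 23.7%, with intervals that all overlap, and the orange points from 0.281% to 15.8%.

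Taken 1 gene at a time, cells with Trib3 had Gdf15 in 18.8% (14.4 to 23.9%) and cells without it in 10.2% (8.95 to 11.5%). The same pair of shares was 16.6% and 8.38% for Ddit3, 16.1% and 4.72% for Nupr1, 19.5% and 10.6% for Sesn2 and 14.3% and 10.0% for Atf4 itself. For Chac1 the pair was 16.7% and 10.6% and for Atf5 13.1% and 10.6%, and for both genes the intervals overlap. For the p53 target Cdkn1a the pair was 16.5% (12.4 to 21.4%) and 10.4% (9.204 to 11.7%). These shares pool cells of all mt- shares. Over cells under 1% mt- share the r with Gdf15 was -0.0183 for Atf4, -0.0323 for Atf5 and 0.0129 for Cdkn1a. It was 0.0939 for Nupr1, 0.0611 for Ddit3, 0.0443 for Trib3, 0.0304 for Sesn2 and 0.0238 for Chac1. Cells with and without Gdf15 had median depths of 3128 and 3082 UMIs and the same median of 2 YFP UMIs, and their median mt- shares were 0.418% and 0.833%. The summed level of 12 microglial markers was 159.2 CPM in cells with Gdf15 and 138.1 CPM in cells without, that of 10 oligodendrocyte markers 412.9 and 447.5 CPM, and that of 10 endothelial markers 41.5 and 39.1 CPM. Ependymal markers, 10 in number, summed to 71.5 CPM in cells with Gdf15 and 151.9 CPM in those without, and 5 erythrocyte markers to 18.5 and 9.203 CPM, from 8 and 32 UMIs. Between the libraries, the microglial markers of the NSC pool-like class summed to 73.1 CPM (CT) and 149.985 CPM (Opa1 cKO) and 5 erythrocyte markers to 311.2 and 9.67 CPM, and their part in the Gdf15 difference was not tested.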

How the data were processed

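The authors aligned the reads to mm10 with Cell Ranger and deposited UMI counts per gene and barcode, 1 matrix per genotype. The labels give Cell Ranger 2.1.1, whereas the matrix headers give software version 3.1.0. Rows of a shared symbol were summed, giving 22587 symbols. Cells had over 600 and under 7500 genes, under 20% mt- counts and at least 1 YFP UMI, as in the study's methods, which left fewer cells than the study names. Doublets were not called. An alternative left out the deepest 5% of cells.

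Cells were clustered with Seurat 5.3.0 and sctransform 0.4.2 (8 dimensions, resolution 0.2), leaving out 69 features. Classes were named from fixed markers by a scoring rule written after the clusters were seen. CPM intervals are exact Poisson, shares exact binomial (Clopper-Pearson) and ratios come from the binomial split of counts. A count of 0 was bounded at 3 counts. Shares were taken after thinning to 1500 UMIs. The members and gene lists were chosen with earlier results of these data known. The genes named are the members, the 20 highest and 10 lowest by r with Gdf15, and list genes. The code was tested on simulated data. With 1 library of 3 pooled mice per genotype, no test between genotypes was made.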

Additional observations from a re-analysis of the deposited data

Results flagged for a closer look

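Gdf15 was also counted in Opa1 cKO barcodes that the comparisons by class above did not treat as groups of their own. Barcodes outside the limits on genes and mt- content had Gdf15 in 2.82% (1.36 to 5.13%), from 10 UMIs in 10 of 354 barcodes, against 0 of 448 in CT, where 3 counts would be 0.670% and the exact interval reaches 0.820%. These barcodes had a median of 770.5 UMIs, so they hold little RNA of any kind.

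When no YFP filter was used, a microglia-like cluster formed, and 12.7% (8.52 to 17.9%) of its Opa1 cKO cells had Gdf15, from 31 UMIs in 27 of 213 cells, against 0 of 81 CT cells. These Opa1 cKO cells also carried the 20 NSC markers at a summed 77387 CPM, where NSC pool-like cells had 82095 CPM, beside 12 microglial markers at 2969 CPM against 111.0 CPM. In the clustering of kept cells, 40, 46 and 16 of them lay in NSC pool-like clusters 0, 1 and 2. Which cells the Gdf15 molecules came from was not tested.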

How the results depend on the processing

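Of 118 values recomputed under 18 settings, 100 stayed within the counting interval of the value reported (for the number of shared genes, within 1.5 times), 16 moved and 2 reversed. Without the YFP filter, Opa1 cKO NSC pool-like cells had Gdf15 at 82.5 CPM and those named progenitor and neuron-like had 9.70 CPM, with a thinned NSC pool-like share of 9.42%. With every barcode over 200 genes the same values were 81.9 CPM, 9.69 CPM and 9.40%. Without the deepest 5% of cells, progenitor and neuron-like cells had 11.5 CPM. The share was 8.79% at a shallower and 14.2% at a deeper thinning than 1500 UMIs, and 20.8% without thinning, by construction of the thinning. The ratio by mt- share was 4.24 (log2) for under 0.5% over 3% or more. The ratio by YFP reversed to -0.24 in thinned cells and to -0.050 in cells under 1% mt- share, the latter added after seeing the data, both with intervals that include 0. Of the 20 genes leading with Gdf15, 12 were shared at the shallower and 9 at the deeper thinning, 12 with another seed, 12 without thinning and 6 in cells under 1% mt- share, and Nupr1 was among the leading 20 in 14 of 14 settings. Leaving out cells named microglia-like was also added after seeing the data. No paired analysis was possible because each genotype has 1 library. For the same reason no replicate could be left out, and the intervals do not cover the spread between mice.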
